A study of Mus musculus with 17 samples.

Results

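The 10 genes described here encode membrane carriers of glutamate, glutamine, other neutral amino acids and cationic amino acids: Slc1a1, Slc1a4, Slc1a5, Slc7a1, Slc38a1, Slc38a2, Slc38a3, Slc38a7, Slc36a1 and Slc16a10. They were chosen by gene name in the table of read counts, where all 10 were found among 48795 genes, of which 28116 had a count in at least 1 sample. The table came from mRNA-seq of mouse kidney cortex in 4 groups: 5 WT samples, 5 GCERAd samples labelled ATF4 KO, 3 TRACK samples and 4 GCERAdT samples labelled TRACK-ATF4 KO. The labels give every sample a number, here called the sample number, up to 5 in WT and GCERAd, without saying what it marks. Their protocol has 3 to 4 mice a cohort. In the paper's summary of sequenced libraries, some names also recur with an added letter, without a link to the groups. Some WT and GCERAd samples may therefore come from the same mouse, and p-values that count them as separate may then be too small. GCERAd mice carried a CreER transgene under a portion of the Ggt1 promoter and floxed ATF4 alleles, and were 6 weeks old when injected with tamoxifen on 2 days, each time with 200 µL of a 20 mg/mL solution. The mice of that experiment were fasted for 16 h about 1 month after the first injection and were then killed. TRACK stands for a transgenic model of kidney cancer, known from other work to express a constitutively active form of HIF1A in the proximal tubule. The alleles and treatment of the GCERAdT mice beyond their label, the age of the TRACK and GCERAdT mice, and any tamoxifen in WT or TRACK mice are not given in the sources used here. The Ggt1 promoter directs the deletion to proximal tubule cells, so other cells of the cortex would keep intact ATF4 alleles. In such bulk samples, fewer cells of a type and less RNA per cell cannot be told apart.

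The proximal tubule reclaims nearly all filtered amino acids and takes up glutamine from the blood, whose nitrogen it releases as ammonium for acid excretion. Slc1a1, Slc38a1, Slc38a2 and Slc38a3 use the sodium gradient to bring amino acids into the cell. Slc1a4 and Slc1a5 exchange neutral amino acids, and Slc38a7 lies in the lysosomal membrane. Slc7a1 lets cationic amino acids through by facilitated diffusion, and Slc36a1 moves small neutral amino acids together with protons. Slc16a10 releases aromatic amino acids towards the blood. ATF4 is a transcription factor of the integrated stress response, made in larger amounts when cells lack amino acids, and several carriers, among them Slc7a1, Slc38a2, Slc1a4 and Slc1a5, are known as its target genes in cultured cells.

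The genes lie on 8 chromosomes of the GRCm38 assembly. Slc1a4 (ENSMUSG00000020142; chr11:20302180-20332713, minus strand) and Slc36a1 (ENSMUSG00000020261; chr11:55204350-55236330, plus strand) share chromosome 11. Slc38a1 (ENSMUSG00000023169; chr15:96571418-96642913) and Slc38a2 (ENSMUSG00000022462; chr15:96687392-96699730) lie close together on the minus strand of chromosome 15. Slc1a1 (ENSMUSG00000024935) is at chr19:28835049-28913960 and Slc1a5 (ENSMUSG00000001918) at chr7:16781340-16798274, both on the plus strand. On the minus strand, Slc7a1 (ENSMUSG00000041313) is at chr5:148327410-148399904, Slc38a3 (ENSMUSG00000010064) at chr9:107650634-107669530, Slc38a7 (ENSMUSG00000036534) at chr8:95835920-95853539 and Slc16a10 (ENSMUSG00000019838) at chr10:40033532-40142258.

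Promoter windows of 250 bases before to 50 bases after a RefSeq start (GRCm38.p6) were at hand for 7 of the 10 genes. They were searched on both strands for TGATGNAA, the core of the element bound by ATF4 with C/EBP proteins, and for CACGTG, the E-box core bound by factors such as TFEB and MYC. The ATF4 core was present in 3.97% of all 32851 windows and, among the carriers, in that of Slc1a4, where its reverse complement TTGCATCA began 4 bases before the start. CACGTG was present in 7.15% of all windows, in that of Slc38a7 34 bases before the start, and at a pair of places in that of Slc36a1, 31 and 3 bases before the start. The sequences of Slc1a4 and Slc36a1 are shown for these matches, in capitals, and that of Slc7a1 because this gene differed most between groups; it held neither motif. They read from 5′ to 3′ on the strand of the gene, over chr11:20332708-20332803 (minus strand), chr11:55204250-55204345 (plus strand) and chr5:148399905-148400024 (minus strand). A match describes letters and not a bound site.
Slc1a4: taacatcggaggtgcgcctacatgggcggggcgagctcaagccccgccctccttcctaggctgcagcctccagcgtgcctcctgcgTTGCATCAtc
Slc36a1: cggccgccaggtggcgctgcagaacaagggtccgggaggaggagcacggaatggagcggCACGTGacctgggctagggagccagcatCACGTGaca
Slc7a1: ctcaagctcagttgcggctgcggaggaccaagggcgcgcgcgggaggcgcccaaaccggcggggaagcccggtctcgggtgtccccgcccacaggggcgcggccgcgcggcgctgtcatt

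Between 53688512 and 71364561 reads per sample were counted on genes, with medians of 58472452 in WT, 60286345 in GCERAd, 57182925 in TRACK and 60169217 in GCERAdT. Atf4 had 79.6, 74.8, 81.5, 86.9 and 101 CPM (counts relative to the TMM-scaled library size) in WT and 72.9, 55.8, 57.4, 61.8 and 75.2 CPM in GCERAd, a log2 fold change of -0.38 (SE 0.11, adjusted p = 0.0218, edgeR) that was -0.31 without WT 5 (adjusted p = 0.0559) and -0.34 without GCERAd 3 (adjusted p = 0.0527). It had 93.4, 79.9 and 77.6 CPM in TRACK and 80.4, 94.1, 94.8 and 104 CPM in the samples labelled GCERAdT, so that Atf4 mRNA was not lower under that label (log2 fold change 0.17, SE 0.11, adjusted p = 0.367). Reads on the deleted and the retained exons of Atf4 are not told apart in these counts. Xist, expressed from the inactive X chromosome, was between 147 and 422 CPM in WT and at most 6.06 CPM in the other groups, while the Y-linked Ddx3y was at 0 in all 5 WT samples and at 49.7 CPM or more in every other sample. Every comparison with WT therefore also compares samples without and with Y-linked transcripts, and genotype and sex cannot be told apart there. GCERAd 4 and 5 stood apart from GCERAd 1, 2 and 3: their root mean square distance on the log2 scale over 12208 genes was 0.452 to 0.565, against 0.262 to 0.406 among GCERAd 1, 2 and 3 and 0.237 between GCERAd 4 and 5. Fits on either part of the GCERAd samples were added after seeing the data, so their p-values, given below, do not test this split. Libraries also fell into 2 kinds by their share of counts on processed pseudogenes, kind B above 0.0477% being WT 2, GCERAd 3, 4 and 5, all 3 TRACK samples and GCERAdT 3 and 4. As WT 2 is the only WT sample of kind B, TRACK against WT with library kind in the fit compares TRACK with WT 2 alone.

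Ranked by FPKM, a scale that divides by exon length, Slc1a1 led the carriers in WT cortex with a mean of 36.7 FPKM (range 33.7 to 40.8). Slc1a1 is the sodium-coupled glutamate and aspartate carrier of the brush border. Slc38a3, the sodium-coupled glutamine carrier of the basolateral membrane, followed with 26.1 FPKM (range 22.4 to 31.0). Slc36a1 at 10.9, Slc16a10 at 10.7 and Slc38a2 at 9.72 FPKM overlapped in their ranges and were not separated. Below them came Slc1a5 with 6.86, Slc38a7 with 5.20 and Slc1a4 with 3.74 FPKM, of which the last 2 overlapped. Slc7a1 with 1.31 and Slc38a1 with 0.367 FPKM were the lowest. In TRACK and in samples labelled GCERAdT, Slc38a3 stood first with 38.9 and 38.5 FPKM and Slc1a1 second with 30.4 and 30.3 FPKM, each pair with overlapping ranges. Slc1a5, behind 5 carriers in WT, stood behind 2 by its mean in these groups, at 9.95 and 9.30 FPKM. Its range overlapped that of the next carrier in each, Slc38a2 in TRACK and Slc36a1 in GCERAdT, so this place was not separated.

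**Figure D1:**
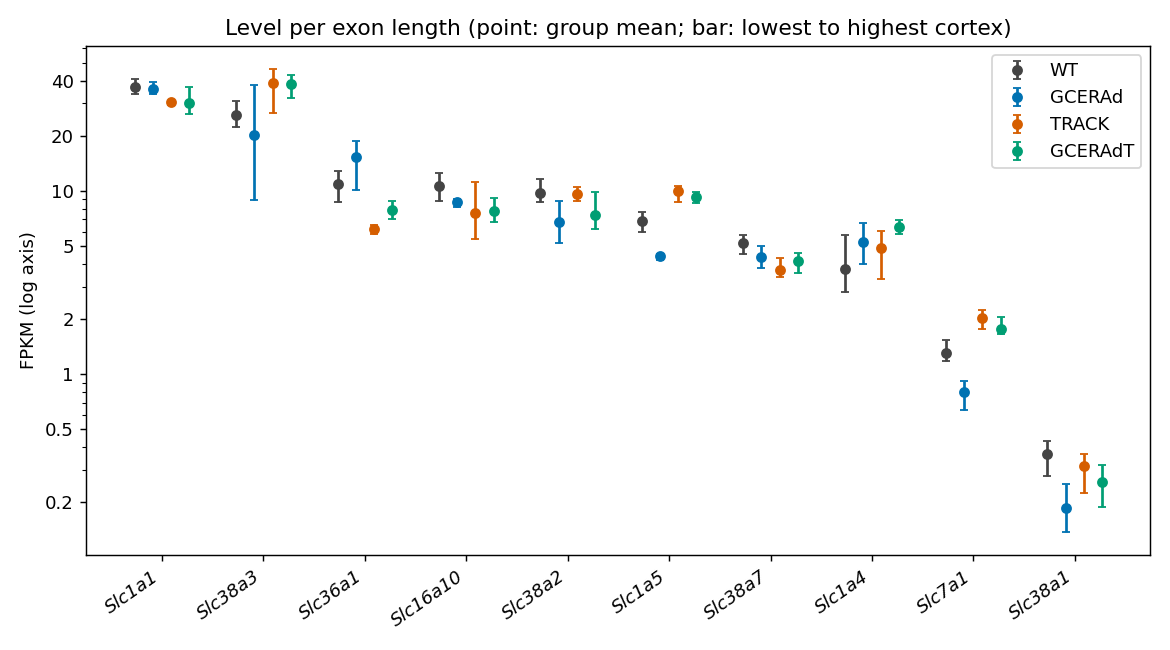
Mean level of each carrier in the 4 groups in FPKM on a log axis. Bars span the lowest to the highest sample, and carriers are ordered by their WT mean. Slc1a1 and Slc38a3 have the highest means in every group, and Slc38a1 is lowest, between 0.185 FPKM in GCERAd and 0.367 FPKM in WT. In GCERAd the range of Slc38a3 (8.88 to 37.8 FPKM) overlaps that of Slc36a1 (10.1 to 18.7 FPKM).

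The first question was how the carriers differed between GCERAd and WT cortices, the contrast of the proximal tubule ATF4 deletion. Of the 10 carriers 5 were called lower and none higher, with 0.05 as the largest adjusted p accepted: Slc1a5, Slc7a1, Slc38a1, Slc38a2 and Slc16a10. Other settings with all samples kept called Slc1a4 higher (DESeq2, the sample number as a block, library kind in the fit). They also called Slc36a1 higher (DESeq2, all 17 samples in 1 fit, library kind), and the call of Slc16a10 was lost under several. Over all 11581 genes tested, 27.6% were called changed, 14.1% higher and 13.5% lower. These genes included 9 of the carriers. Slc38a1 lay under the expression minimum and came from a fit of every gene with a count, in which 11.7% were called. The median log2 fold change of the 10 carriers was -0.32, against -0.00 over all genes tested, and 8 carriers had an unadjusted p under 0.05. All changes below are log2 fold changes from the quasi-likelihood test of edgeR, and adjusted p-values follow Benjamini and Hochberg over every gene tested. In 3 carriers, Slc1a5, Slc7a1 and Slc38a1, the groups did not overlap, as in 20.2% of all genes tested.

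The same label contrast within the cancer model, GCERAdT against TRACK, called none of the 10 carriers, with 2 at an unadjusted p under 0.05 and 1, Slc36a1, called by DESeq2. In this comparison of 4 with 3 samples 7.09% of 11928 genes were called, 2.81% higher and 4.28% lower, and the median over the carriers was 0.00, against 0.01 over all genes tested. TRACK against WT called 6 carriers, 3 higher and 3 lower, against 45.6% of all 11967 genes (23% higher and 22.6% lower), and 5 carriers did not overlap between the groups, as in 44.3% of genes, with a median of -0.12 over the carriers and -0.01 over all genes. Samples labelled GCERAdT against GCERAd, which all had Y-linked transcripts, called 3 carriers, 2 higher and 1 lower, against 19.2% of 11816 genes (9.39% higher and 9.79% lower), and 3 carriers did not overlap, as in 19.3% of genes, with a median of 0.19 over the carriers and -0.00 over all genes. With the sample number as a block, 4 carriers were called in this last comparison and 3770 genes in place of 2266. Samples of the same number deviated together there, but in both groups numbers 3 and 4 were also of library kind B and numbers 1 and 2 were not, so pairing by number cannot be told apart from library kind in that likeness. These comparisons share groups and are not independent of each other. The difference between the first 2 contrasts, tested over all 17 samples, was called for 2 carriers, Slc1a5 and Slc7a1, both higher, against 25.1% of 12208 genes (12.3% higher and 12.8% lower), with a median of 0.34 over the carriers and 0.02 over all genes.

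**Figure D2:**
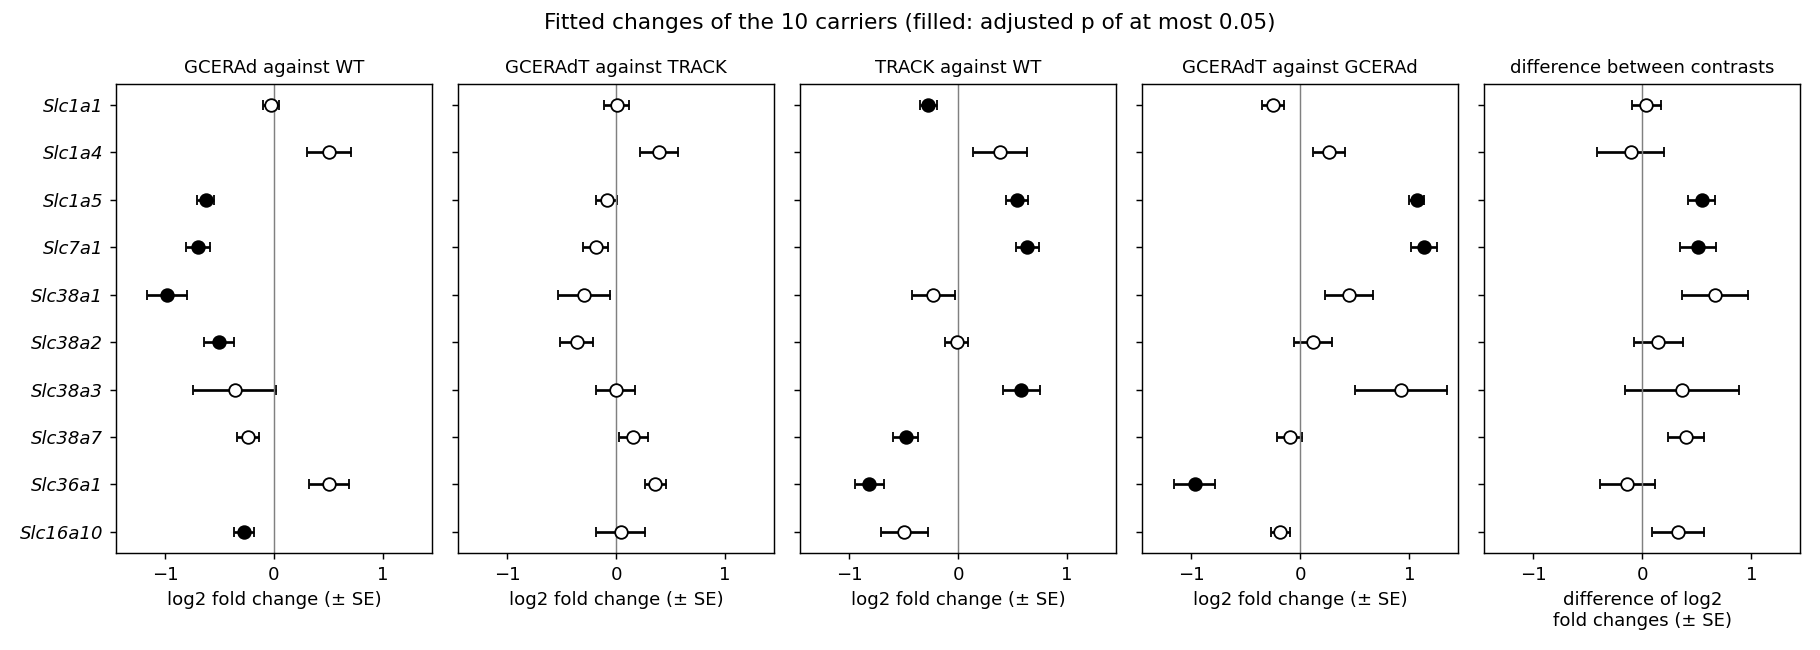
Fitted log2 fold change of each carrier with its standard error in 4 comparisons, and in the last panel the difference of GCERAdT against TRACK minus GCERAd against WT; filled circles have an adjusted p of at most 0.05. Filled circles number 5, 0, 6, 3 and 2 from left to right, and Slc1a5 and Slc7a1 are filled in all panels but GCERAdT against TRACK.

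Slc1a5 carries glutamine and other small neutral amino acids in exchange for each other. It had 26.9, 28.0, 31.9, 25.0 and 31.4 CPM in WT and 18.7, 17.6, 17.7, 18.9 and 19.0 CPM in GCERAd. TRACK samples had 44.6, 43.9 and 36.1 CPM, and samples labelled GCERAdT had 40.3, 38.1, 35.7 and 41.2 CPM. All 5 GCERAd values lay below the lowest WT value, and all 7 values of the TRACK and GCERAdT groups lay above the highest WT value. Slc1a5 fell by 0.63 in GCERAd against WT (SE 0.08, adjusted p = 0.000138) and rose by 0.54 in TRACK against WT (SE 0.10, adjusted p = 0.00193). With the TRACK background present in the group labelled GCERAdT, Slc1a5 was 1.07 higher than in GCERAd (SE 0.07, adjusted p = 4.78e-06). Between GCERAdT and TRACK its log2 fold change was -0.09 (SE 0.09, adjusted p = 0.602). The 2 label contrasts differed by 0.55 (SE 0.12, adjusted p = 0.00415), and this call held with each sample left out in turn, where the highest adjusted p was 0.0141.

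Slc7a1, which carries arginine, lysine and ornithine, followed a like order. Its values were 17.6, 13.9, 14.7, 13.6 and 15.5 CPM in WT and 9.44, 10.6, 10.0, 8.71 and 7.35 CPM in GCERAd. They were 25.9, 23.9 and 20.4 CPM in TRACK and 19.1, 19.4, 19.4 and 23.7 CPM in samples labelled GCERAdT. Again GCERAd lay wholly below WT, and the TRACK and GCERAdT groups wholly above it, while those 2 groups overlapped. Slc7a1 fell by 0.70 in GCERAd against WT (SE 0.11, adjusted p = 0.000923), rose by 0.64 in TRACK against WT (SE 0.11, adjusted p = 0.00114) and was 1.13 higher in samples labelled GCERAdT than in GCERAd (SE 0.12, adjusted p = 0.000142). In GCERAdT against TRACK its log2 fold change was -0.19 (SE 0.11, adjusted p = 0.327). The difference between the contrasts was 0.51 (SE 0.17, adjusted p = 0.032). It no longer passed without any 1 of WT 1, WT 5, GCERAd 4, TRACK 2, TRACK 3 or GCERAdT 4 (0.41 to 0.53, adjusted p of 0.0504 to 0.0988), nor without GCERAd 4 and 5 together (0.38, adjusted p = 0.0809).

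The ratio of the highest to the lowest group mean was 2.26 for Slc1a5 and 2.54 for Slc7a1. For both genes the mean was highest in TRACK and lowest in GCERAd, with GCERAdT and WT between, and only the neighbours TRACK and GCERAdT overlapped. Among 12208 genes, the 3 whose centred log2(CPM + 0.5) values lay closest to those of Slc1a5 over the 17 samples were Lgals3, Slc7a1 and Litaf, at root mean square differences of 0.155, 0.165 and 0.175. For Slc7a1 they were Slc1a5, Lgals3 and Pafah1b3, at 0.165, 0.194 and 0.199. The summed level of the injured tubule markers Havcr1, Lcn2 and Krt20 was 1.67 to 4.08 CPM in WT, 2.24 to 9.21 in GCERAd, 20.8 to 50.5 in TRACK and 31.1 to 39.6 in GCERAdT. All 3 were called higher in TRACK against WT, beside 23% of all genes, although not all 3 passed the expression minimum without TRACK. Both tested were called higher in GCERAdT against GCERAd, beside 9.39%. Of the 2 tested in GCERAd against WT 1 was higher and 1 lower, beside 14.1% and 13.5% of all genes. In GCERAdT against TRACK 1 was higher and 2 were lower, beside 2.81% and 4.28%. The summed level of 8 proximal tubule markers was 7915 to 9547 CPM in WT, 7776 to 12207 in GCERAd, 4376 to 5274 in TRACK and 5192 to 6030 in GCERAdT. The part of either marker list in the levels of Slc1a5 and Slc7a1 was not tested.

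**Figure D3:**
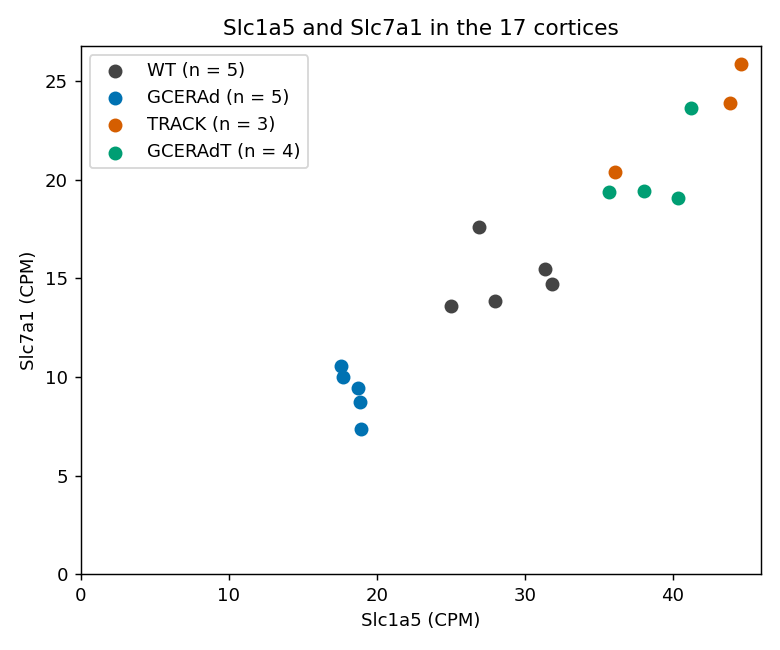
CPM of Slc7a1 (vertical) against CPM of Slc1a5 (horizontal), 1 point per sample. The 5 GCERAd samples lie at the lower left (17.6 to 19.0 CPM of Slc1a5), the 5 WT samples in the middle, and the 7 TRACK and GCERAdT samples at the upper right, where they overlap.

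Slc1a4 and Slc1a1, the other Slc1 carriers among the 10, did not share this order. Slc1a4, which exchanges alanine, serine, cysteine and threonine, had 15.0, 12.4, 22.7, 11.0 and 12.4 CPM in WT and 26.1, 23.6, 21.0, 15.7 and 16.8 CPM in GCERAd. It had 20.8, 23.8 and 13.0 CPM in TRACK and 27.3, 25.0, 24.9 and 22.8 CPM in samples labelled GCERAdT. WT 3 exceeded the other WT samples and reached into the ranges of GCERAd and TRACK. The GCERAd mean was higher than the WT mean, with a log2 fold change of 0.50 that did not pass (SE 0.20, adjusted p = 0.0861), and it was 0.71 without WT 3 (adjusted p = 0.00925). With WT 3 kept it was called by DESeq2 (0.50, adjusted p = 0.0473) and with the sample number as a block (0.53, adjusted p = 0.0479). It was also called with library kind in the fit (0.65, adjusted p = 0.0257). In TRACK against WT the value was 0.39 (SE 0.25, adjusted p = 0.227) with WT 3 and 0.60 without it (adjusted p = 0.0295). For GCERAdT against TRACK it was 0.39 (SE 0.18, adjusted p = 0.202).

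Slc1a1 varied least of the 10, with 1.21 as the ratio of the highest to the lowest group mean. It had 299.6, 289.6, 337, 278 and 313 CPM in WT and 287, 324, 299, 288 and 278 CPM in GCERAd, with ranges that coincided almost entirely (log2 fold change -0.03, SE 0.07, adjusted p = 0.819). TRACK samples had 244, 253 and 256 CPM, all below the lowest WT sample. Samples labelled GCERAdT had 247, 234, 218 and 303 CPM, the last of them within the WT range. Slc1a1 fell by 0.27 in TRACK against WT (SE 0.07, adjusted p = 0.0137), a call lost without TRACK 1 (adjusted p = 0.0578) and on adding library kind to the fit (-0.21, adjusted p = 0.203). In samples labelled GCERAdT against GCERAd the change was -0.25 (SE 0.10, adjusted p = 0.115), and -0.36 without GCERAdT 4 (adjusted p = 0.0215).

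The Slc38 family supplied 4 members, all carriers of glutamine and other neutral amino acids. Slc38a1 was scarce and had between 138 and 426 reads per sample, so it stayed below the expression minimum of 1 FPKM and was taken from the fit of every gene with a count, in which 11.7% of genes were called for GCERAd against WT. Its levels were 5.63, 4.79, 7.49, 6.65 and 7.09 CPM in WT, and 4.33, 3.54, 2.38, 2.73 and 2.99 CPM in GCERAd. All GCERAd values lay below all WT values, and Slc38a1 fell by 0.98 (SE 0.18, adjusted p = 0.0018), the largest change of the 10 carriers in this comparison. It had 3.88, 6.08 and 6.31 CPM in TRACK and 4.02, 4.97, 5.52 and 3.26 CPM in samples labelled GCERAdT, which overlapped each other and, in part, both other groups. None of the other comparisons called it, with log2 fold changes of -0.30 for GCERAdT against TRACK (adjusted p = 0.553), -0.23 for TRACK against WT (adjusted p = 0.43) and 0.44 for GCERAdT against GCERAd (adjusted p = 0.276), where the same fit of every gene with a count called 4.75%, 22.9% and 7.86% of genes.

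Slc38a2 takes up small neutral amino acids and is the member of the family best known to respond to amino acid shortage. It had 79.1, 80.8, 89.7, 77.1 and 103 CPM in WT and 64.9, 45.8, 52.8, 59.2 and 77.5 CPM in GCERAd. The groups overlapped only through GCERAd 5, which lay just above WT 4. Slc38a2 fell by 0.50 (SE 0.13, adjusted p = 0.0159), and the log2 fold change was -0.64 in GCERAd 1, 2 and 3 alone (adjusted p = 0.00362) and -0.32 in GCERAd 4 and 5 alone (adjusted p = 0.101). In TRACK it had 84.4, 92.6 and 77.8 CPM, within the WT range. In samples labelled GCERAdT it had 57.2, 54.5, 63.7 and 87.2 CPM, of which 3 lay below every TRACK sample and GCERAdT 4 lay among them. The log2 fold change of GCERAdT against TRACK was -0.36 and did not pass (SE 0.15, adjusted p = 0.182), while without GCERAdT 4 it was -0.53 (adjusted p = 0.0165). The test of the difference between the contrasts gave 0.15 (SE 0.22, adjusted p = 0.658).

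**Figure D4:**
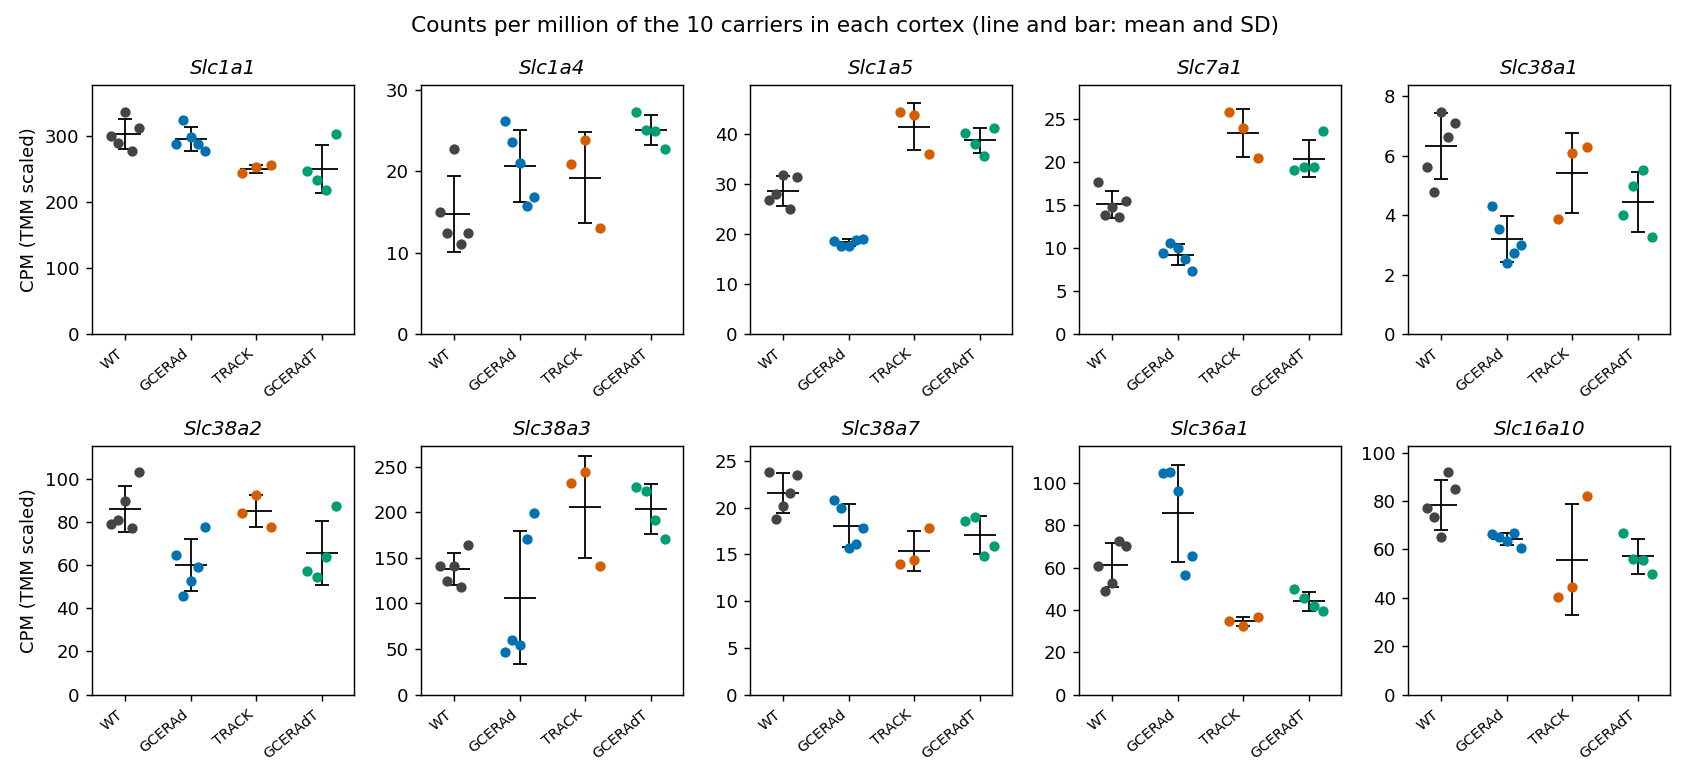
CPM of each carrier in every sample, by group, with the group mean and SD as a line and a bar, each axis from 0. Slc1a5 and Slc7a1 separate GCERAd from WT and both from the TRACK groups, GCERAd samples of Slc38a3 and Slc36a1 fall into separate clusters, and a lone GCERAdT sample exceeds the others of its group for Slc38a2 (87.2 CPM) and Slc7a1 (23.7 CPM).

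Slc38a3 had the widest spread within a group. Its values in WT were 141, 124, 141, 118 and 164 CPM. GCERAd samples fell into separate clusters, with 46.8, 60.4 and 53.9 CPM in GCERAd 1, 2 and 3, all below the lowest WT sample, and 171 and 199.6 CPM in GCERAd 4 and 5, both above the highest WT sample. Over all 5 GCERAd samples the log2 fold change was -0.36 and did not pass (SE 0.38, adjusted p = 0.515). It was -1.34 with GCERAd 1, 2 and 3 alone (adjusted p = 2.34e-05) and 0.44 with GCERAd 4 and 5 alone (adjusted p = 0.0218), so that the direction depended on which samples were kept. The split was made after seeing the data, so these p-values describe it and do not test it, and GCERAd 2 and 3 may be 1 mouse. Pck1, the gluconeogenic enzyme that takes part in glutamine use, split the same samples, with 964, 1363 and 1232 CPM in GCERAd 1, 2 and 3 and 8443 and 7972 CPM in GCERAd 4 and 5, against 1855 to 3083 CPM in WT. Pck1 is named here because it split these samples, and not by the rule used for the enzyme list below. Of that list, Glud1 split likewise, with 393, 442 and 399 CPM in GCERAd 1, 2 and 3 and 1025 and 1200 CPM in GCERAd 4 and 5. Got1 did not, with 90.4, 89.6 and 88.5 CPM in GCERAd 1, 2 and 3 and 91.0 and 98.0 CPM in GCERAd 4 and 5. The part of Pck1 in the levels of Slc38a3 was not tested.

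In TRACK, Slc38a3 had 232, 244 and 141 CPM, and in samples labelled GCERAdT it had 227, 224, 192 and 170.3 CPM. All GCERAdT values and 2 of the 3 TRACK values exceeded the highest WT value of 164 CPM. Slc38a3 rose by 0.58 in TRACK against WT (SE 0.17, adjusted p = 0.0176). This call was lost without TRACK 1 (0.48, adjusted p = 0.0768) or TRACK 2 (0.44, adjusted p = 0.09). With library kind in the fit, which leaves WT 2 alone for comparison, the change was 0.73. GCERAdT against TRACK gave -0.00 (SE 0.18, adjusted p = 0.991). For GCERAdT against GCERAd the change was 0.92 and did not pass (SE 0.42, adjusted p = 0.159). It was called with the sample number as a block (1.51, adjusted p = 0.0205) and without GCERAd 5 (1.29, adjusted p = 0.0383). It was not called with library kind in the fit (1.14, adjusted p = 0.0765), and against GCERAd 4 and 5 alone it was 0.13 (adjusted p = 0.544). The nearest genes in pattern were Cyp4a31, S100a10 and Tfcp2l1, at root mean square differences of 0.280, 0.305 and 0.321.

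Slc38a7, a glutamine carrier of the lysosomal membrane, had 23.8, 18.8, 20.1, 21.5 and 23.5 CPM in WT and 20.8, 20.02, 15.7, 16.1 and 17.8 CPM in GCERAd, with overlap and a log2 fold change of -0.24 (SE 0.10, adjusted p = 0.097). TRACK samples had 14.0, 14.4 and 17.9 CPM, all below the lowest WT sample, and Slc38a7 fell by 0.48 in TRACK against WT (SE 0.11, adjusted p = 0.00636). With library kind in the fit that value was -0.29 (adjusted p = 0.228). Samples labelled GCERAdT had 18.6, 19.0, 14.8 and 15.9 CPM and overlapped TRACK (log2 fold change 0.16, SE 0.13, adjusted p = 0.489). The difference between the contrasts was 0.40 and did not pass (SE 0.17, adjusted p = 0.0838), although it did without GCERAd 1 (0.46, adjusted p = 0.049) or TRACK 3 (0.51, adjusted p = 0.038).

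Slc36a1 exports small neutral amino acids with protons from lysosomes and takes them up at the cell surface of some epithelia. It was one of the 2 carriers, with Slc1a4, whose mean was higher in GCERAd than in WT. WT samples had 61.0, 49.2, 52.7, 72.6 and 70.2 CPM. GCERAd 1, 2 and 3 had 105, 105 and 96.5 CPM, above every WT sample, and GCERAd 4 and 5 had 56.7 and 65.7 CPM, within the WT range. The log2 fold change over all 5 was 0.50 (SE 0.18, adjusted p = 0.0628). With every sample kept it was called by DESeq2 (0.50, adjusted p = 0.0202), with all 17 samples in 1 fit (0.49, adjusted p = 0.0249) and with library kind in the fit (0.67, adjusted p = 0.00688). It also passed without GCERAd 4 (0.62, adjusted p = 0.0148) or GCERAd 5 (0.58, adjusted p = 0.0385), or without both (0.76, adjusted p = 0.00109). In GCERAd 4 and 5 alone it was 0.01 (adjusted p = 0.967).

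In TRACK, Slc36a1 had 34.7, 32.6 and 36.8 CPM, below all WT values, and it fell by 0.82 against WT (SE 0.13, adjusted p = 0.000859). With library kind in the fit this was -0.50 (adjusted p = 0.0526). Samples labelled GCERAdT had 49.8, 45.9, 41.9 and 39.5 CPM, all above the highest TRACK sample, the only carrier without overlap in that comparison, as in 23.1% of the genes tested. The log2 fold change of 0.36 did not pass (SE 0.10, adjusted p = 0.0584), but it was called by DESeq2 (adjusted p = 0.0232) and without GCERAdT 4 (0.41, adjusted p = 0.0287), and was 0.24 with GCERAdT 3 and 4 alone, the samples of the same library kind as TRACK (adjusted p = 0.264). Slc36a1 fell by 0.97 in samples labelled GCERAdT against GCERAd (SE 0.19, adjusted p = 0.00563), and by 0.47 against GCERAd 4 and 5 alone (adjusted p = 0.0257). Evc, Kl and Plekha6 were its nearest genes in pattern, at 0.128, 0.175 and 0.175.

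**Figure D5:**
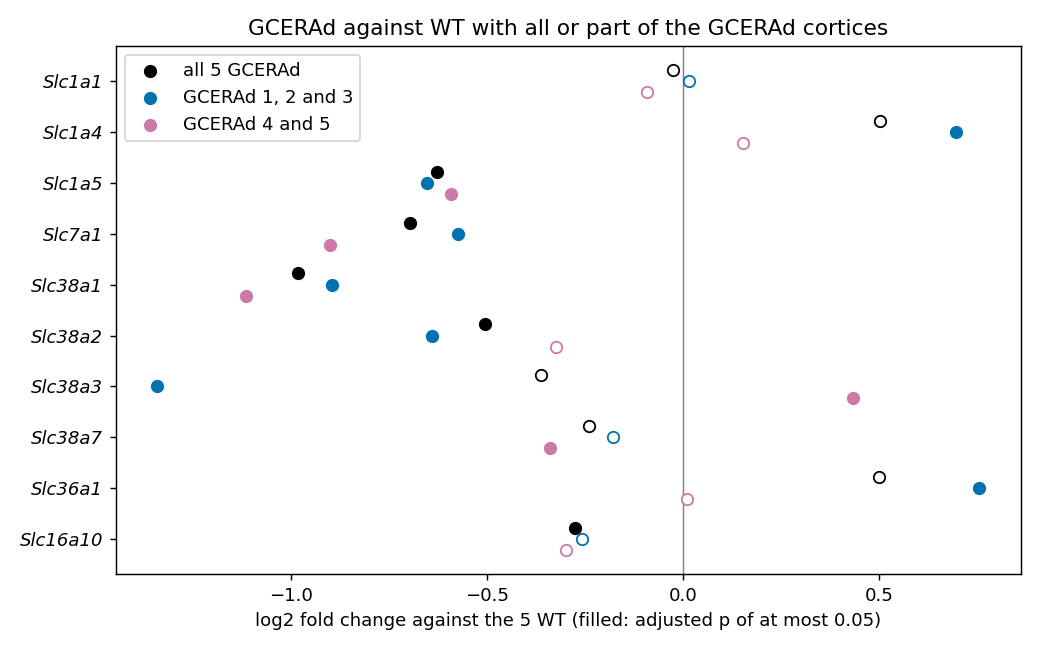
Log2 fold change of each carrier against the 5 WT samples, with all 5 GCERAd samples (black), with GCERAd 1, 2 and 3 (blue) and with GCERAd 4 and 5 (pink); filled points have an adjusted p of at most 0.05. The 3 points lie close together for Slc1a5 (-0.59 to -0.65) and apart for Slc38a3 (-1.34 to 0.44) and Slc36a1 (0.01 to 0.76). The split was made after seeing the data, so the p-values of the parts do not test it.

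Slc16a10, the basolateral carrier of tyrosine, phenylalanine and tryptophan, had 77.1, 73.4, 65.2, 91.8 and 84.9 CPM in WT and 66.2, 65.0, 63.6, 66.6 and 60.4 CPM in GCERAd. The GCERAd values reached into the lowest part of the WT range. Slc16a10 fell by 0.27 (SE 0.09, adjusted p = 0.0402), close to the threshold, and this call was lost in 8 of the 10 fits that left out 1 sample (adjusted p of up to 0.0968), the exceptions being those without WT 2 and WT 3. With all samples kept it was lost with no expression minimum, with the sample number as a block and with all 17 samples in 1 fit. It was also lost with possible repeat libraries summed and with library kind in the fit (adjusted p of 0.062 to 0.167 over these settings). In TRACK it had 40.4, 44.7 and 82.0 CPM, with TRACK 3 far above the others and within the WT range. The change in TRACK against WT was -0.49 (SE 0.21, adjusted p = 0.084), and without TRACK 3 it was -0.88 (adjusted p = 0.000944). With TRACK 3 kept it was called by DESeq2 (-0.49, adjusted p = 0.034), with no expression minimum (-0.50, adjusted p = 0.0465) and with all 17 samples in 1 fit (-0.49, adjusted p = 0.0355). Samples labelled GCERAdT had 66.9, 55.8, 55.6 and 50.0 CPM, between the TRACK values, with a log2 fold change of 0.04 (SE 0.23, adjusted p = 0.925). Without TRACK 3 the difference between the contrasts was 0.70 (adjusted p = 0.00499), against 0.32 with it (SE 0.24, adjusted p = 0.336). For GCERAdT against GCERAd the change was -0.19 (SE 0.09, adjusted p = 0.17), and -0.27 without GCERAdT 1 (adjusted p = 0.0425).

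Among 34 other carriers of the same families, 14 were expressed above the minimum in GCERAd or WT, and 2 were called higher and 6 lower, where 14.1% of all genes tested were called higher and 13.5% lower. Slc7a5, the light chain of the large neutral amino acid exchanger at the plasma membrane, fell by 1.09 in GCERAd against WT (SE 0.18, adjusted p = 0.0011), from 3.98 ± 0.448 CPM (SD, n = 5) to 1.86 ± 0.380 CPM (SD, n = 5). Slc3a2, the heavy chain that Slc7a5, Slc7a7 and Slc7a8 need to reach the membrane, fell by 0.55 (SE 0.09, adjusted p = 0.00103). Slc7a8, a basolateral exchanger of neutral amino acids, fell by 0.65 (SE 0.13, adjusted p = 0.00366). The largest changes were those of Slc7a13, an acidic amino acid and cystine carrier of the late proximal tubule, from 0.0901 to 1.47 CPM in WT to 323 to 1026 CPM in GCERAd, and of Slc7a12, which fell by 2.80 (SE 0.32, adjusted p = 0.000101); both are known to differ between male and female mouse kidneys. Most of these changes were also seen in TRACK, which lacks the ATF4 KO label. In TRACK against WT, Slc7a13 rose by 8.40 (adjusted p = 3.37e-06). Slc7a12 fell there by 3.18 (adjusted p = 0.000689) and Slc7a8 by 1.42 (adjusted p = 2.41e-05), while Slc7a5 rose, as given below. Slc3a2 was at 150 to 183 CPM in TRACK and at 220 to 269 CPM in WT. Slc3a2 is named here because it partners the others and was picked after its values were seen.

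In the other comparisons the family list showed 2 higher and 2 lower of 14 for GCERAdT against TRACK, where 7.09% of all genes were called, and 4 higher and 6 lower of 15 for TRACK against WT, where 45.6% were. It showed 2 higher and 4 lower of 14 for GCERAdT against GCERAd, beside 19.2% of all genes, and 5 higher and 3 lower of 15 for the difference between the contrasts, beside 25.1%. Slc7a7, the basolateral exporter of cationic amino acids, had 44.4, 51.2 and 70.2 CPM in TRACK and 109.5, 96.7, 98.1 and 126 CPM in samples labelled GCERAdT, higher by 0.97 (SE 0.16, adjusted p = 0.00887). Slc7a8 was likewise higher by 0.80 (SE 0.12, adjusted p = 0.00466). Slc36a4 and Slc43a3 were lower, by log2 fold changes of -0.46 (adjusted p = 0.0131) and -0.83 (adjusted p = 0.00587), the call of Slc36a4 being lost without TRACK 1 (-0.42, adjusted p = 0.0642) and with library kind in the fit (-0.45, adjusted p = 0.0566). Slc7a5 was at 6.86, 7.29 and 6.82 CPM in TRACK and at 3.15, 4.80, 4.57 and 5.89 CPM in samples labelled GCERAdT, without overlap and with a log2 fold change of -0.60 that did not pass (SE 0.21, adjusted p = 0.118). It rose by 0.81 in TRACK against WT (SE 0.14, adjusted p = 0.00139).

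The enzymes of glutamine and glutamate use were given by a list of 15 genes. For GCERAd against WT 2 of 11 tested rose and 1 fell, a share close to the 27.6% of all genes called. Oat, the ornithine aminotransferase, fell by 1.04 (SE 0.09, adjusted p = 1.07e-05), while Ggt1, whose promoter drives the CreER transgene, rose by 0.67 (SE 0.11, adjusted p = 0.00107) and Gclc rose by 0.31 (SE 0.10, adjusted p = 0.0319). The call of Gclc was lost in 7 of the 10 fits that left out 1 sample (adjusted p of up to 0.0675). Glul, the glutamine synthetase, had 762, 870.4 and 1159.8 CPM in TRACK and 304, 243, 259.7 and 349.9 CPM in samples labelled GCERAdT. It fell by 1.68 (SE 0.17, adjusted p = 0.000751), 1 of 2 genes of the list called in that comparison, both lower of 13 tested, beside 7.09% of all genes. The other was Got1 (-0.52, SE 0.11, adjusted p = 0.0223), whose call was lost in 5 of the 7 fits that left out 1 sample (adjusted p of up to 0.0842). For TRACK against WT, where 45.6% of all genes were called, 6 of 13 rose and 3 fell. The 13, against 11 in GCERAd against WT, include genes that passed the expression minimum only through TRACK and could hardly be called lower. The 13 of GCERAdT against GCERAd below likewise include genes that passed only through GCERAdT. Oat was among those that fell (-1.33, adjusted p = 1.73e-05). Among those higher were Asns, the asparagine synthetase that spends glutamine, from 1.58 to 3.53 CPM in WT to 16.0 to 27.9 CPM in TRACK, and Aldh18a1, the first enzyme from glutamate to proline, which rose by 3.41 (SE 0.24, adjusted p = 5.45e-06). For GCERAdT against GCERAd 5 of 13 rose and 4 fell, beside 19.2% of all genes, and for the difference between the contrasts 1 of 13 was higher and 2 were lower, beside 25.1%.

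Beside Slc1a5 and Slc7a1, a list of genes known as ATF4 targets in other cells was read, none of them a carrier. In GCERAd against WT 4 of 22 rose and 5 fell, with a median log2 fold change of 0.02, where 27.6% of all genes were called. In GCERAdT against TRACK 2 of 27 rose and 1 fell, with a median of -0.14, beside 7.09% of all genes. In TRACK against WT 21 of 27 rose and 1 fell, with a median of 0.63, beside 23% of all genes called higher and 22.6% lower. In samples labelled GCERAdT against GCERAd 13 of 26 rose and none fell, with a median of 0.49, beside 9.39% of all genes called higher and 9.79% lower. The 27 and the 26, against 22 in GCERAd against WT, include genes that passed the expression minimum only through TRACK or GCERAdT. Such genes could hardly be called lower, so both counts and medians lean towards higher. Trib3, a pseudokinase induced in the stress response, was at 12.3 to 18.6 CPM in TRACK and at 17.98 to 27.2 CPM in samples labelled GCERAdT, against 0.55 to 1.35 CPM in WT. In the difference between the contrasts 3 of 27 list genes were higher and 2 lower, beside 25.1% of all genes. Slc1a5 and Slc7a1 were called higher in the last 2 group comparisons, TRACK against WT and GCERAdT against GCERAd, which share no sample. The carriers Slc38a2 and Slc1a4, also known as targets, were called in neither of them. Slc38a2 had log2 fold changes of -0.02 (adjusted p = 0.92) and 0.12 (adjusted p = 0.69), and Slc1a4 of 0.39 (adjusted p = 0.227) and 0.26 (adjusted p = 0.238).

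Markers of other cell types also differed between groups, in comparisons with and without WT. Over all genes tested, 14.1% were called higher and 13.5% lower in GCERAd against WT. The shares were 23% and 22.6% in TRACK against WT and 9.39% and 9.79% in GCERAdT against GCERAd. All 4 principal cell markers fell in GCERAd against WT and in TRACK against WT, with summed levels of 723 to 814 CPM in WT, 249 to 462 in GCERAd, 366 to 437 in TRACK and 278 to 388 in GCERAdT. All 3 thick ascending limb markers fell in GCERAd against WT and 2 of them in TRACK against WT. In these 2 comparisons 2 and 3 of the 3 distal convoluted tubule markers fell, as did 2 of the 4 intercalated cell markers in each. The summed level of 4 endothelial markers was 228 to 277 CPM in WT, 256.4 to 319 in GCERAd, 456 to 485 in TRACK and 347 to 392 in GCERAdT, and 4 of 4 rose in TRACK against WT and 3 of 4 in GCERAdT against GCERAd. Of the 8 proximal tubule markers 1 rose and none fell in GCERAd against WT, while 5 fell in TRACK against WT and 4 fell in GCERAdT against GCERAd, none rising in either. No marker of any of these lists was at 0 throughout a group, except 1 adipocyte marker in GCERAdT and 1 skeletal muscle marker in WT and in TRACK. Of 3 stroma markers 2 rose in GCERAd against WT and 1 in TRACK against WT. Of 3 podocyte markers 1 rose in TRACK against WT and 1 in GCERAdT against GCERAd. Both adipocyte markers tested were called lower in GCERAdT against TRACK, where 4.28% of all genes were. Their level in TRACK came mostly from 1 sample. The summed level of the 4 adipocyte markers was 62.6 CPM in TRACK 1, and 0.633 and 1.16 CPM in TRACK 2 and 3. It was 0.187 to 0.243 CPM in GCERAdT, so these calls do not describe TRACK as a group. The part of these cell types in the changes of the carriers was not tested.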

How the data were processed

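RNA of kidney cortex was sequenced in 17 samples from TruSeq Stranded mRNA libraries. The counts per gene deposited by the authors came from HTSeq-count 0.13.5, after adapter trimming (Cutadapt 3.5) and alignment to GRCm38 (STAR 2.7.9a), and carry no normalization. The annotation release and strand setting are not given in the sources used here, so overlapping genes carry some uncertainty.

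The tests used edgeR 4.0.16 in R 4.3.3 (TMM scaling, quasi-likelihood test). Genes with a mean of at least 1 FPKM in either group were tested; carriers below it came from a fit of every gene with a count. FPKM used merged exon lengths of GENCODE M21, known for 48435 genes. A gene was called when its Benjamini-Hochberg adjusted p did not exceed 0.05. SE is the log2 fold change divided by the square root of F. All 10 carriers were described, with up to 4 of the largest called changes from each further list. Some genes were named outside this rule. Among them were Slc3a2, Pck1, Glud1 and Got1 beside Slc38a3, and Slc7a5 in GCERAdT against TRACK and in TRACK against WT. Carriers and lists were chosen with earlier results of these data known. The procedure was tested on simulated data.

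Groups came from the sample labels, and the numbered samples were counted as replicates. Samples of the same number deviated together in GCERAdT against GCERAd (r of 0.43, 0.56, 0.52 and 0.39 for numbers 1 to 4). The labels do not say what the number marks. Numbers 1 to 4 each had the same library kind in both groups, so pairing cannot be told apart from library kind. In the other comparisons r did not exceed 0.084. The main fits did not pair samples by number, which served as a block in an alternative. WT 1 and 2, and GCERAd 2 and 3, resembled each other in their adipocyte transcripts (4.38 and 6.28, and 24.4 and 22.4 CPM) and may each be repeat libraries of 1 mouse. Over all 12208 genes they were no closer than other pairs. WT 1 and 2 lay 0.357 apart (0.238 to 0.427 within WT), and GCERAd 2 and 3 lay 0.366 apart (0.262 to 0.406 among GCERAd 1, 2 and 3). These libraries were kept apart in the values given and summed in an alternative. Alternatives were DESeq2 1.42.0, RLE scaling, other expression minimums, the sample number as a block and library kind as a covariate. Others were the possible repeat libraries summed, all 17 samples in 1 fit, and each sample left out. Left-out sets of samples and the CACGTG search were added after seeing the data. At 53688512 reads or more per sample, counts above 100 reads per carrier limit the counting error; no carrier was at 0.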

Additional observations from a re-analysis of the deposited data

Results flagged for a closer look

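Slc7a1 in GCERAdT 4 stood apart from its group: its 23.7 CPM lay above the nearest sample at 19.4 CPM by 0.931 of the whole range of the 4 samples; this is past Dixon's 95% critical value for 4 samples. Over the carriers, 30 groups of 4 or 5 samples were checked, and chance marks about 1 in 20 such groups. Without GCERAdT 4 the difference between the contrasts for Slc7a1 was 0.43 (adjusted p = 0.0619).

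The effects of the ATF4 label on Slc1a5 differed between the WT and the TRACK backgrounds, by 0.55 on the log2 scale (adjusted p = 0.00415, edgeR). Those on Slc7a1 differed by 0.51 (adjusted p = 0.032), a less stable call. It was lost in 6 of the 17 fits that left out 1 sample. It was also lost with no expression minimum (0.48, adjusted p = 0.0763) and with library kind in the fit (0.46, adjusted p = 0.0863). Both genes fell in GCERAd against WT and were not called in GCERAdT against TRACK. Atf4 itself differed between the contrasts by 0.55 (SE 0.16, adjusted p = 0.021), a call lost without TRACK 2 (0.52, adjusted p = 0.0579) or TRACK 3 (0.49, adjusted p = 0.0592). The Y-linked transcripts differ in the WT contrast and not in the TRACK contrast, so genotype and sex cannot be told apart in these differences.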

How the results depend on the processing

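RLE scaling changed no direction and no call of the 10 carriers in any comparison. Slc1a5 and Slc7a1 kept direction and call in GCERAd against WT, TRACK against WT and GCERAdT against GCERAd under every alternative run. For TRACK against WT with library kind, which leaves WT 2 alone for comparison, only the direction is counted. Genes called moved from 3198 to 2106 with the replicate block for GCERAd against WT. For GCERAdT against TRACK they moved from 846 to 1562 (DESeq2), 462 (library kind), 221 (GCERAdT 1 and 2 left out) and 379 to 1424 with 1 sample left out, and carriers called from 0 to 1 with DESeq2 and 0 to 2 with 1 sample left out. For TRACK against WT they moved from 5458 to 3431 (replicate block) and 2776 (library kind), and carriers from 6 to 3 and 2. For GCERAdT against GCERAd they moved from 2266 to 3770 with the block and 1427 to 2336 with 1 sample left out, the low count being without GCERAdT 2. With the possible repeat libraries summed, 4 in place of 5 carriers were called in GCERAd against WT, where Slc16a10 no longer passed (-0.29, adjusted p = 0.0795) and Slc38a2 had an adjusted p of 0.044; no other carrier changed direction or call. Carriers called for the difference between contrasts moved from 2 to 1 with no filter or with library kind, and 1 to 3 with 1 sample left out.

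Directions turned as follows. In GCERAd against WT, Slc1a1 was 0.0058 with library kind, 0.016 without GCERAd 4 and 5 and -0.062 to 0.013 with 1 sample left out, and Slc38a3 was 0.44 without GCERAd 1, 2 and 3. In GCERAdT against TRACK, Slc1a1 was -0.0085 with no filter, -0.10 with the block, -0.0013 with all 17 samples and -0.10 to 0.061 with 1 sample left out, Slc38a3 was 0.11 with the block and -0.21 to 0.13 with 1 sample left out, and Slc16a10 was -0.069 with library kind, -0.071 without GCERAdT 1 and 2 and -0.15 to 0.44 with 1 sample left out. In TRACK against WT, Slc38a2 was 0.031 with the block, 0.074 with library kind and -0.083 to 0.058 with 1 sample left out, Slc38a1 was 0.18 with library kind, and Atf4 was 0.086, 0.16 and -0.11 to 0.052. In GCERAdT against GCERAd without GCERAd 1, 2 and 3, Slc38a2 was -0.059 and Slc38a7 0.0092, and Slc38a2 was -0.052 to 0.24 with 1 sample left out. For the difference between contrasts, Slc1a4 was 0.015 with the block, Slc1a1 was -0.012 without GCERAd 4 and 5, and without GCERAd 1, 2 and 3 Slc1a4 was 0.24, Slc38a2 -0.037, Slc38a3 -0.44 and Slc36a1 0.35. With 1 sample left out Slc1a1 was -0.068 to 0.10, Slc1a4 -0.34 to 0.075 and Slc38a2 -0.020 to 0.26. The causes were not tested.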
